A study of Homo sapiens with 18 samples.

Results

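Untreated U2OS cells that carried wild-type DNMT3A were compared with untreated U2OS cells that carried only the empty vector. U2OS is a human osteosarcoma cell line. The comparison takes 6 of the 18 libraries of the series, 3 from the wild-type line (WT) and 3 from the empty vector line (EV), and all genes of the deposited count table. The empty vector was MigR1, a murine retroviral vector, and the vector that carried the DNMT3A construct is not given in the sources used here. The labels name these cells untreated and the text of the series names them a vehicle control. The other 12 libraries were an untreated line with mutant DNMT3A and all 3 lines after cytarabine (10 µM for 24 h), a drug resembling cytidine that blocks DNA replication. The series text and the sample labels name different mutations for the mutant line, so it is called the mutant line here. Replicates were separately plated cultures of 1 line per construct, so a difference between lines and a difference caused by the construct cannot be told apart, and the p-values measure the spread between cultures. The labels do not say whether a line is a clone or a pool.

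DNMT3A is one of the enzymes that put new methyl groups on cytosine in DNA, mostly where a cytosine is followed by a guanine (CpG). DNMT3B does the same, DNMT1 with UHRF1 copies the pattern to the new strand after replication, and the TET enzymes oxidise the mark and lead to its removal. Methylation of a CpG-rich promoter is known to go with silence of the gene, while methylation inside a gene body is common in active genes. DNA methylation itself was not measured in these libraries.

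The 6 libraries held 17.1 to 18.3 M counts in the EV line and 19.1 to 21.5 M in the WT line, and genes of the mitochondrial genome took 2.93% to 3.60% of the counts. The replicate libraries of each group differed by more than the noise of sampling, and the coefficient of variation beyond counting noise was 0.0397 in the EV group and 0.0398 in the WT group. Markers of mesenchymal and osteoblast cells summed to 3403 to 3502 CPM (counts scaled by library size to a common total, per M) in the EV libraries and 3560 to 3570 CPM in the WT libraries, led by VIM at 2000 to 2130 CPM. SPARC gave 870 to 1170 CPM, RUNX2 37.9 to 48.8 CPM and BGLAP 0.105 to 0.367 CPM over the 6 libraries. SP7, IBSP and TWIST1, markers of the same kind, had no entry under those symbols among the counted genes. Leukocyte markers summed to at most 2.0 CPM, muscle markers to at most 2.7 CPM and endothelial markers to at most 5.9 CPM in any of the 6 libraries. Epithelial markers summed to 16.6 to 19.5 CPM in the EV line and 13.5 to 15 CPM in the WT line. Of these, CLDN4 gave 10.3 to 12.7 CPM over the 6 libraries and EPCAM 1.85 to 3.39 CPM. Neural markers summed to 136 to 140 CPM in the EV line and 119 to 128 CPM in the WT line. Over the 6 libraries TUBB3 gave 110 to 128 CPM, RBFOX3 1.67 to 11.1 CPM and GFAP 0.233 to 4.46 CPM. Of 5 neural markers tested, 1 was higher and 1 lower in the WT line at an edgeR adjusted p under 0.05. In bulk RNA, fewer cells with a transcript and less of it in each cell cannot be told apart.

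The introduced gene was read first. DNMT3A (chr2:25227855-25342591 on hg38) gave 26.9, 27.5 and 26.2 CPM in the EV libraries and 131, 129 and 139 CPM in the WT libraries. The groups lay far apart, and the log2 fold change was 2.31 with a standard error (SE) of 0.20 (edgeR adjusted p = 1.82e-07). The counts do not separate the introduced copy from the cell's own gene. In the untreated mutant line DNMT3A averaged 456 CPM, above both.

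Of 25 genes of the DNA methylation machinery, 23 could be tested, and 5 passed an adjusted p of 0.05. Of these, 3 were higher, the introduced DNMT3A among them, and 2 lower. These were 13% and 8.7% of the tested members, against 4.3% and 7.36% among all tested genes. DNMT3B, the second enzyme of new methylation, fell from 34.9, 34.6 and 39.2 CPM in the EV line to 23.7, 27.0 and 26.9 CPM in the WT line, a log2 fold change of -0.49. ZBTB33, which encodes Kaiso, a reader of methylated DNA, fell by 0.40 on the log2 scale. HELLS, a chromatin remodeller needed for DNA methylation, rose by 0.31, and MBD4, a glycosylase that repairs mismatches at CpG sites, rose by 0.27. When 1 of the 6 libraries was left out in turn, HELLS lost its call in 5 of the 6 fits and MBD4 in 4. The maintenance genes did not pass the test: DNMT1 averaged 275 ± 3.78 CPM (SD, n = 3) in the EV line and 257 ± 8.32 CPM in the WT line, and UHRF1 differed by -0.15 on the log2 scale. The differences of TET1, TET2 and TET3 were 0.17, 0.04 and 0.32 on the same scale, and none passed. AHCY and MAT2A, which run the methyl donor cycle, differed by -0.13 and -0.08 and did not pass. In the fit of the 6 libraries alone 7 genes of the list were higher and 6 lower, in place of 3 and 2. Over all genes that fit called 2426 higher and 2675 lower, in place of 783 and 1342. DNMT1 (edgeR adjusted p = 0.0457), UHRF1 (0.00521), TET3 (2.31e-05), AHCY (0.0089), MBD2, MBD3 and UHRF2 were among the genes of the list that passed there.

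**Figure D1:**
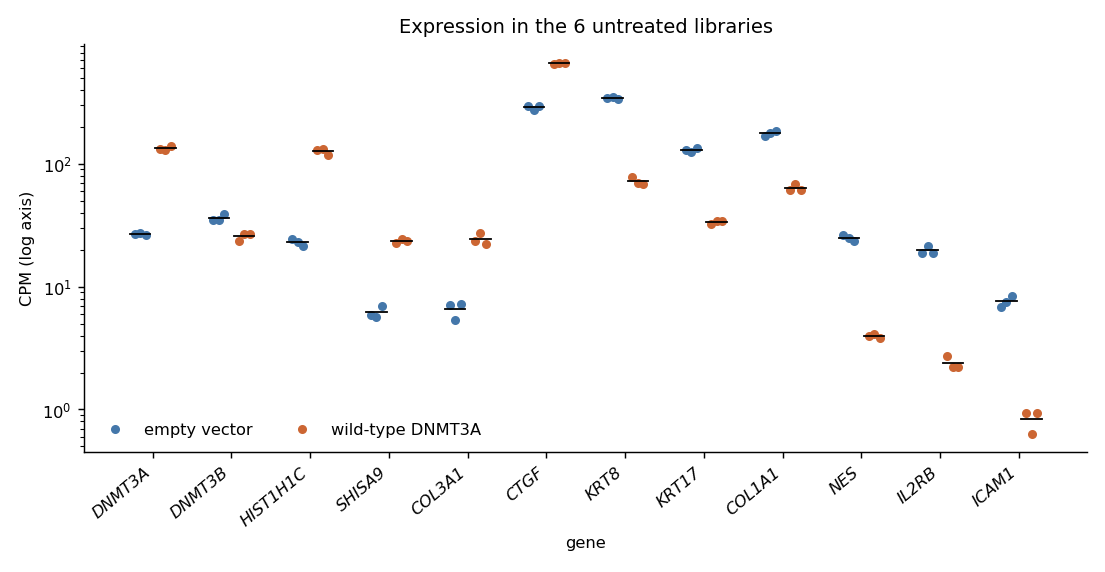
CPM of 12 genes (logarithmic axis) in the 3 empty vector libraries (blue) and the 3 wild-type DNMT3A libraries (orange), all untreated; each point is 1 library and each bar a group mean. Apart from DNMT3A and DNMT3B, the genes were chosen among called genes without overlap between the groups. DNMT3A lies at about 27 CPM against 129 to 139 CPM and KRT8 at 336 to 348 CPM against 68.1 to 77.9 CPM.

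Across all 18226 tested genes, 783 were higher in the WT line (4.3% of the genes tested) and 1342 were lower (7.36%), at an adjusted p under 0.05 by edgeR's quasi-likelihood test. Of the 2125 called genes, 36.8% were thus higher, while the median log2 fold change over all tested genes was 0.00. The median called gene changed by 0.45 upward or -0.56 downward, and a change of at least 2-fold was seen in 126 of the higher and 343 of the lower genes. Falls outnumbered rises at weak and at strong expression: of 2904 genes with a mean log2 CPM of 0 to 2, 84 were higher and 191 lower. Among the 3985 genes at a mean log2 CPM of 6 or more, 206 were higher and 273 lower. The model took its spread from all 18 libraries. Its common coefficient of variation beyond counting noise was 0.104, against 0.0397 within the EV group and 0.0398 within the WT group. With the 6 libraries alone, 2426 genes were higher and 2675 lower, and 2053 of the 2125 genes were called in that fit as well. Leaving out any 1 of the 6 libraries gave 449 to 490 higher and 923 to 962 lower genes, and 1022 of the 2125 genes (48.1%) were called in all 6 of these fits.

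**Figure D2:**
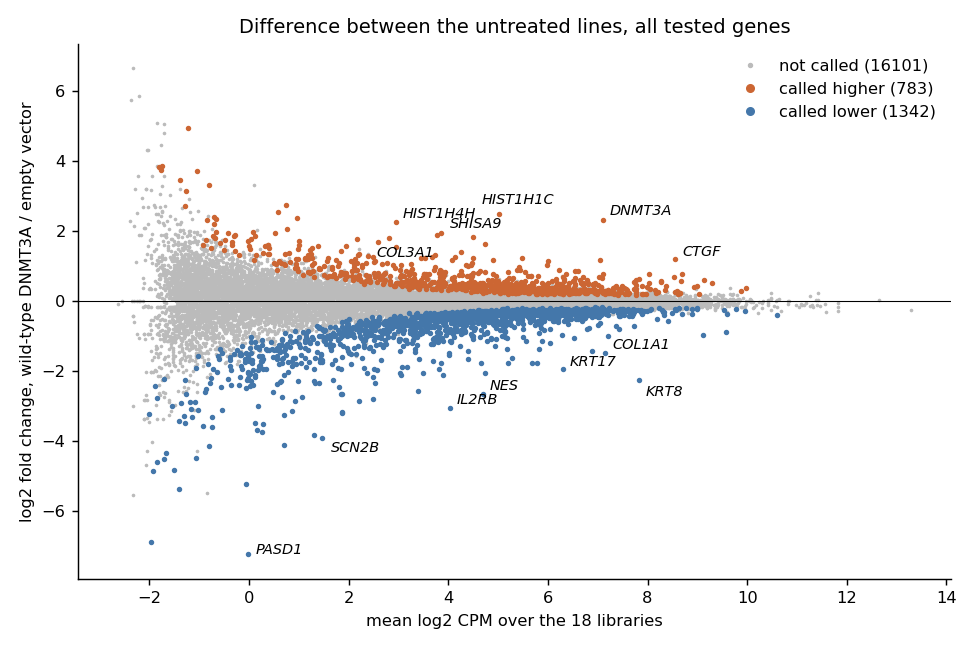
Log2 fold change of the wild-type DNMT3A line against the empty vector line, untreated, for 18226 genes, plotted against the mean log2 CPM over the 18 libraries; grey genes were not called, orange genes were called higher (783) and blue genes lower (1342). The steepest falls lie below a mean log2 CPM of 5, while KRT8, KRT17 and COL1A1 are strongly expressed genes that fell.

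Among genes that averaged 1 log2 CPM or more, the largest falls lay between -2.58 and -3.90 on the log2 scale and took in genes best known from other cell types. SCN2B (chr11:118161951-118176674), a beta subunit of voltage-gated sodium channels, gave 4.56, 4.5 and 4.43 CPM in the EV line and 0.25, 0.48 and 0.16 CPM in the WT line, a log2 fold change of -3.90 (SE 0.35). ICAM1 (chr19:10270835-10286616), the adhesion molecule that leukocyte integrins bind, fell from 6.84, 7.48 and 8.42 CPM to 0.93, 0.63 and 0.93 CPM, a change of -3.17. IL2RB, the beta chain of the interleukin 2 and 15 receptors, fell from 18.7, 21.6 and 18.9 CPM to 2.75, 2.22 and 2.20 CPM, a change of -3.04. In each of these genes the lowest EV value was several times the highest WT value. CDA, the cytidine deaminase that inactivates cytarabine, fell by 2.84 on the log2 scale, from 5.43 to 7.01 CPM to 0.82 to 0.98 CPM. NES, which encodes the intermediate filament protein nestin, fell from 26.1, 24.9 and 23.5 CPM to 3.97, 4.13 and 3.79 CPM, a change of -2.64. The other named falls were the long noncoding RNA LINC01694 (-3.82), PALM3 (-3.19), SYTL1 (-2.78), SERPINB5 (-2.73), GALNT5 (-2.66), BIK (-2.66) and KRT8P3 (-2.58). SERPINB5 encodes maspin, BIK a death-promoting member of the BCL2 family and GALNT5 an enzyme that starts O-linked glycans. KRT8P3 is a processed copy of KRT8, so reads of the parent gene may be counted there.

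Rises were smaller. HIST1H1C (chr6:26055787-26056429), which encodes the linker histone H1.2, gave 24.4, 23.0 and 21.5 CPM in the EV line and 130, 132 and 119 CPM in the WT line, a log2 fold change of 2.47 (SE 0.12), next to 2.31 for DNMT3A. HIST1H4H, a histone H4 gene, rose from 6.02, 5.96 and 5.29 CPM to 27.5, 27.1 and 27.8 CPM, a change of 2.25, and HIST1H2BK, a histone H2B gene, rose by 1.84. SHISA9, an auxiliary subunit of AMPA-type glutamate receptors, rose from 5.90, 5.67 and 6.95 CPM to 22.5, 24.6 and 23.6 CPM, a change of 1.93. The remaining large rises were COL3A1 (1.88), the thioesterase gene OLAH (1.80), PDGFB (1.76), EPHB1 (1.68), which encodes an ephrin receptor, KCNB2 (1.61), a potassium channel gene, and the unnamed loci AC009879.3 (1.71) and AC008012.1 (1.61). AC009879.3 lost its call in 5 of the 6 fits that left out 1 library.

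Because 3 histone genes stood among the 12 largest rises, all genes of the clustered histone families were counted, a list chosen after their values were seen. Of 41 such genes 19 were tested, 11 rose (57.9% of those tested) and none fell. Among all tested genes 4.3% were higher and 7.36% lower. The median log2 fold change of the 19 was 1.04. The 3 genes that prompted the count are among the 11. The 11 included genes of every class of nucleosome histone: HIST1H2AC rose from 28.8 ± 2.58 CPM to 67.9 ± 4.42 CPM (SD, n = 3), HIST1H2BD from 10.8 ± 0.91 CPM to 25.1 ± 1.21 CPM, HIST2H2BE from 18.7 ± 0.74 CPM to 38.3 ± 0.93 CPM and HIST1H3H from 1.01 ± 0.15 CPM to 2.54 ± 0.16 CPM. HIST1H3H lost its call in 1 of the 6 fits that left out 1 library. The 8 genes that did not pass ranged from HIST1H4I at 0.48 to HIST2H2BD at -0.38 on the log2 scale. HIST1H2AG, with 9.86 CPM in the EV line and 10.5 CPM in the WT line, differed by 0.08. Messages of most clustered histone genes lack a poly(A) tail, and whether RNA with a tail was selected is not given in the sources used here.

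The 250 bases upstream of the start are shown for the genes of largest change that RefSeq gives a single start near the deposited one, 3 that fell and 3 that rose, to show how much CpG lay in front of them. Sequences are from RefSeq on GRCh38.p14, on the strand of the gene, with each CG dinucleotide in capitals. Among the 35 genes of largest change, 19 were found in that table of promoters and 12 had a single start within 500 bases of the deposited one. The motif is the pair CG, which reads the same on both strands. Over 35116 RefSeq windows of the same length, 93.9% held at least 1 CG, with a median of 11.
SCN2B: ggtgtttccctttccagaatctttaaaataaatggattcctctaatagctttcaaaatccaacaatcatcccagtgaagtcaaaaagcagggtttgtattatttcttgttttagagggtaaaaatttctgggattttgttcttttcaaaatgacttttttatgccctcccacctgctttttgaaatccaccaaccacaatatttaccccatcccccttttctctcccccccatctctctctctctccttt
ICAM1: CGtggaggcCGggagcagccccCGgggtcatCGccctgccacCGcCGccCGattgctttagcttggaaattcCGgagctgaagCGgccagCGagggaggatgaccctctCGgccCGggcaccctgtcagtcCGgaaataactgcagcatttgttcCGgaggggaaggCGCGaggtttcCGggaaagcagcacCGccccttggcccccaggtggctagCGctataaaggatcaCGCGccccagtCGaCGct
CDA: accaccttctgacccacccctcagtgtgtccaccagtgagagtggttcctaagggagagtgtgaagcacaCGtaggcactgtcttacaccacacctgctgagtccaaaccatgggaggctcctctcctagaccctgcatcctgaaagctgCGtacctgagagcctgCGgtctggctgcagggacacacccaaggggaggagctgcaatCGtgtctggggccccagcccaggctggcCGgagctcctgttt
HIST1H1C: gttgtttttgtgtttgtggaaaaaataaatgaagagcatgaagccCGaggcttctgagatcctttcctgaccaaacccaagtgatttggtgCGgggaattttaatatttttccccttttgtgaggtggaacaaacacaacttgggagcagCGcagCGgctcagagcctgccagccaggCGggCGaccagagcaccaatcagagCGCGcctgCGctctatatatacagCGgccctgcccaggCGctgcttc
HIST1H4H: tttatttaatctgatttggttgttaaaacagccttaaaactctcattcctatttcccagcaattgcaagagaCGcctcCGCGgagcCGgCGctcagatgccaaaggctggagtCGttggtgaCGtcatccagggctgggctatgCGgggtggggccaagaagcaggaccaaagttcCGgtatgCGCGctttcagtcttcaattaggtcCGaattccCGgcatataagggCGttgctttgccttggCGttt
CTGF: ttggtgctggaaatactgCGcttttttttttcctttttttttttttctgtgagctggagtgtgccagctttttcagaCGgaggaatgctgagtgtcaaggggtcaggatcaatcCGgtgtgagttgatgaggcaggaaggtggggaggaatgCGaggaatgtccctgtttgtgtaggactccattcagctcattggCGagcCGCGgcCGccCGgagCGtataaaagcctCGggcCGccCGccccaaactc
The windows are chr11:118176640-118176889 on the minus strand, chr19:10270870-10271119 on the plus strand, chr1:20588847-20589096 on the plus strand, chr6:26056471-26056720, chr6:26285535-26285784 and chr6:131951373-131951622 on the minus strand. The promoter of SCN2B, which fell by 3.90 on the log2 scale, held 0 CG pairs and that of ICAM1, which fell by 3.17, held 23. CDA had 5, HIST1H1C 11, HIST1H4H 15 and CTGF, whose values are given below with the matrix genes, 13. Genes without CpG upstream and genes rich in it thus both occur among the falls.

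Promoter CpG content was then read for all genes whose start could be placed on hg38 with GENCODE v44, from 250 bases before to 50 after the start. It was at hand for 96.3% of the protein-coding genes tested. A promoter was called CpG-poor where the CG pairs reached less than 0.4 of the number its C and G content predicts, and CpG-rich at 0.6 or more. CpG-poor promoters made up 10.2% of protein-coding genes, 13.6% of the higher and 13.3% of the lower genes. Among changes of at least 2-fold the share was 49.3% of 73 higher and 33.1% of 290 lower genes. Weakly expressed genes more often have CpG-poor promoters, so genes that averaged 2 log2 CPM or more were read apart: there 11.4% of 528 CpG-poor genes were higher and 19.3% lower, against 4.97% and 8.24% of 9914 CpG-rich genes. Below that level 3.17% of 883 CpG-poor genes were higher and 6.80% lower, against 1.56% and 8.04% of 1543 CpG-rich genes. In the stronger expressed class the share called was thus larger in both directions where CpG was scarce, and in the weaker class the share that fell was not. These shares are a description of the called genes and carry no test.

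The counts of the gene lists that follow stand against 4.3% higher and 7.36% lower among all tested genes. Among the 28 tested keratin and desmosome genes 5 rose and 3 fell (17.9% and 10.7%), and the strongest changes were in opposite directions within the family. KRT8 (chr12:52897187-52949955), which pairs with KRT18 in simple epithelial filaments, gave 342, 348 and 336 CPM in the EV line and 77.9, 69.3 and 68.1 CPM in the WT line, a log2 fold change of -2.25 (SE 0.10). Its partner KRT18 stood at 457 ± 12.8 CPM and 442 ± 21 CPM and differed by -0.05, without passing the test. KRT17 fell from 128, 125 and 134 CPM to 32.1, 34.3 and 33.9 CPM, a change of -1.94. PKP3, a plakophilin of desmosomes, fell by 0.76 on the log2 scale. The hair keratin genes KRT34 and KRT86 rose by 1.26 and 1.19 (the latter lost its call in 4 of the 6 fits without 1 library), and DSP, which encodes desmoplakin, rose by 1.11. KRT75 and KRT7, named after their values were seen, rose by 0.90 and 0.76. The summed epithelial markers, which include none of these genes, were lower in the WT line, as given above, and their part in these changes was not tested.

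Collagen genes changed in both directions as well, with 5 of 32 higher and 8 lower (15.6% and 25%) and a median of 0.06. COL1A1 (chr17:50183289-50201633), the main chain of type I collagen, fell from 168, 178 and 184 CPM to 61.0, 68.5 and 60.8 CPM, a log2 fold change of -1.48 (SE 0.10). COL1A2, the second chain of the same trimer and a weak gene in these cells, rose from 0.46 ± 0.16 CPM to 1.91 ± 0.47 CPM, a change of 2.05. COL3A1 rose from 7.13, 5.32 and 7.26 CPM to 23.4, 27.3 and 22.1 CPM. COL16A1 fell by 1.77, COL8A1 by 1.38 and COL6A3, a chain of the microfibrillar type VI collagen, by 1.05 on the log2 scale. COL22A1 and COL13A1 rose by 0.79 and 0.71.

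Of the 83 tested matrix glycoproteins and matrix enzymes 14 rose and 16 fell (16.9% and 19.3%). CTGF, a matricellular protein and a known target of the YAP and TAZ coactivators, rose from 297, 274 and 293 CPM to 645, 662 and 665 CPM, a log2 fold change of 1.19 (SE 0.08). TNC, which encodes tenascin C, rose by 0.65. MFAP5, a microfibril protein, fell by 1.70, HAPLN1, a link protein of hyaluronan, fell by 1.38 and the collagenase gene MMP13 by 1.12. BGN, which encodes biglycan and was named after its values were seen, fell from 2.54 ± 0.28 CPM to 0.19 ± 0.12 CPM. THY1, a surface glycoprotein of fibroblasts and other mesenchymal cells, fell from 137, 142 and 151 CPM to 53, 54 and 52.4 CPM. In the list of YAP and TAZ targets, 3 of 24 rose (12.5%) and 1 fell: CTGF, FJX1 (0.53) and DLC1 (0.44) rose, and the coagulation starter F3 fell by 1.15. The YAP targets CYR61 and ANKRD1 differed by 0.38 and 0.14 without passing the test.

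Of the 65 tested growth factors and their receptors 14 rose and 12 fell (21.5% and 18.5%). FGF5, a secreted growth factor gene, rose from 12.6, 12 and 11.6 CPM to 33.3, 29.8 and 31.9 CPM, a log2 fold change of 1.39, and PDGFB rose from 2.16, 2.45 and 2.21 CPM to 7.99, 6.98 and 8.14 CPM. FGF12, an intracellular member of the family, rose by 1.20 and IGF2 by 0.90. Several receptors fell: PDGFRA fell by 1.25 and PDGFRB, the main receptor of the PDGFB product and named after its values were seen, by 0.91. DDR2, a receptor kinase that binds collagen, fell from 25.7, 27.1 and 32.1 CPM to 7.40, 6.45 and 5.55 CPM, a change of -2.12. ANGPTL2, a secreted angiopoietin-like protein, fell by 2.06.

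Among genes of the interferon response, none of 43 interferon-stimulated genes rose and 11 fell (25.6%), with a median log2 fold change of -0.20. TRIM22 fell from 23.7, 22.2 and 26.2 CPM to 12.6, 11.6 and 11.6 CPM, LGALS3BP from 160, 158 and 162 CPM to 83.5, 82.3 and 75.6 CPM, and the restriction factor gene IFITM3 from 84.1, 84.8 and 81.8 CPM to 46.2, 48.5 and 45.3 CPM. Of 27 genes of MHC class I and antigen presentation, none rose and 5 fell (18.5%). The immunoproteasome gene PSMB9 fell by 0.78 on the log2 scale and the peptide transporter gene TAP1 by 0.24, and both genes stand in both lists. TAP1 lost its call in 5 of the 6 fits without 1 library. In the NF-kB, cytokine and chemokine list 5 of 50 rose and 9 fell (10% and 18%), a ratio of falls to rises near that over all genes. There ICAM1, CXCL14 (-1.67) and IL24 (-0.96) fell, while CXCL8, the neutrophil chemokine, rose from 6.66, 6.72 and 8.05 CPM to 18.2, 13.7 and 18.5 CPM and CCL4 rose by 1.15.

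In the list of AKR1C, ALDH and retinoid genes 10 of 32 fell (31.2%) and none rose. CYP1A1, a cytochrome induced by the aryl hydrocarbon receptor, fell from 6.02, 5.32 and 6.52 CPM to 2.06, 1.38 and 1.21 CPM, and CRABP2, a retinoic acid carrier, fell by 0.95 on the log2 scale. In the ATF4 and amino acid response list 9 of 48 fell (18.8%), with a median of -0.13. ALDH1L2, a mitochondrial folate enzyme, fell from 20.6, 19.6 and 20.4 CPM to 7.5, 7.04 and 6.98 CPM, AARS, the alanyl-tRNA synthetase gene, which lies in a stretch of lower genes on chromosome 16 described below, by 0.71 and CTH, which makes cysteine, by 0.74. Of the genes that take up and process cytarabine, 3 of 21 fell and 1 rose (14.3% and 4.76%, the latter near the share among all genes). CDA led these. SAMHD1, which cuts its active triphosphate, fell by 0.31, RRM1, a subunit of ribonucleotide reductase, by 0.21, and NT5C, a nucleotidase, rose by 0.38. Leaving out 1 library ended the call of RRM1 in all 6 fits, of NT5C in 5 and of SAMHD1 in 1, and RRM1 did not pass without a filter nor NT5C with the authors' factors. MAOA, the monoamine oxidase gene, fell from 70.8, 74.3 and 67.0 CPM to 33.1, 29.2 and 29.5 CPM.

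Changes among cell cycle genes were small. Of 50 G2 and mitosis genes 9 fell and none rose (18%), with a median of -0.10 and 39 of 50 members below 0. BUB1, a checkpoint kinase gene, fell by 0.36, ASPM by 0.33 and AURKA, the Aurora A kinase gene, by 0.32. Without a filter on low counts 5 of these genes fell, and ASPM lost its call there and in all 6 fits without 1 library. CDKN1A, the p53 target that inhibits cyclin-dependent kinases, rose by 0.19 from 359 to 409 CPM. Its call did not hold in any fit without 1 library (edgeR adjusted p = 0.0891 to 0.189), with a replicate block (0.0511), with DESeq2 size factors, with the authors' factors or without a filter. Of 36 p53 targets 2 rose and 4 fell (5.56% and 11.1%), and of 50 DNA replication and E2F target genes 1 rose and 4 fell (2% and 8%). By edgeR, 0 of 82 genes of the cytosolic ribosome and 0 of the 13 genes of the mitochondrial genome passed. Of the former, 3 were higher and 6 lower at an unadjusted p under 0.05. DESeq2 called 0 higher and 1 lower of them, and the fit of the 6 libraries alone called 14 and 21. Of the latter these numbers were 0 and 0, 0 and 0, and 1 and 3. Over all genes, 4373 of 18226 had an unadjusted p under 0.05. DESeq2 called 798 of all genes higher and 1515 lower, and the fit of the 6 libraries 2426 and 2675.

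Developmental and germline genes were read next. Many germline genes are known to be silenced by methylation in adult tissue, and methylation was not measured here. Of 33 tested HOX genes 5 fell and none rose (15.2%): HOXA7 fell from 4.03, 3.62 and 3.20 CPM to 0.64, 0.95 and 1.26 CPM, HOXC11 by 0.66 and HOXC8 by 0.54 on the log2 scale. Of 40 tested germline genes 7 fell and 4 rose (17.5% and 10%), a ratio near that over all genes. CTCFL (chr20:57495966-57525653), the testis paralogue of the insulator protein CTCF, fell from 20.5, 20.9 and 19.5 CPM to 5.49, 5.24 and 5.17 CPM, a change of -1.94. HORMAD1 and MAGEA10 fell by 1.01 and 0.68, while CTAG2, SYCE1 and MAGEB1 rose by 0.73, 0.44 and 0.35; SYCE1 and MAGEB1 each lost the call in 4 of the 6 fits without 1 library. PASD1, a cancer-testis gene on chromosome X that was named after its values were seen, went from 229, 254 and 225 counts in the EV libraries to 0, 3 and 2 counts in the WT libraries. The ratio of the summed counts, scaled for depth, was 161 with an exact 95% interval of 68.7 to 498 that covers counting error only. In all, 31 of the lower genes had at most 3 counts in every WT library, and 11 of the higher genes had at most 3 in every EV library. Apart from PASD1 these were weak genes in both lines. The EV means of the other lower ones ran from 1.41 CPM (GRIN3B) to 0.138 CPM (SLC52A3). The WT means of the higher ones ran from 1.38 CPM (TNFAIP6) to 0.192 CPM (DES). Of 44 imprinted genes 5 rose and 4 fell (11.4% and 9.09%). IGF2 rose from 8.59, 9.64 and 8.05 CPM to 17.5, 13.7 and 17.8 CPM, while its neighbour H19, named after its values were seen, fell from 3.09 ± 0.89 CPM to 1.73 ± 0.48 CPM, a call lost in 4 of the 6 fits without 1 library and with a replicate block.

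**Figure D3:**
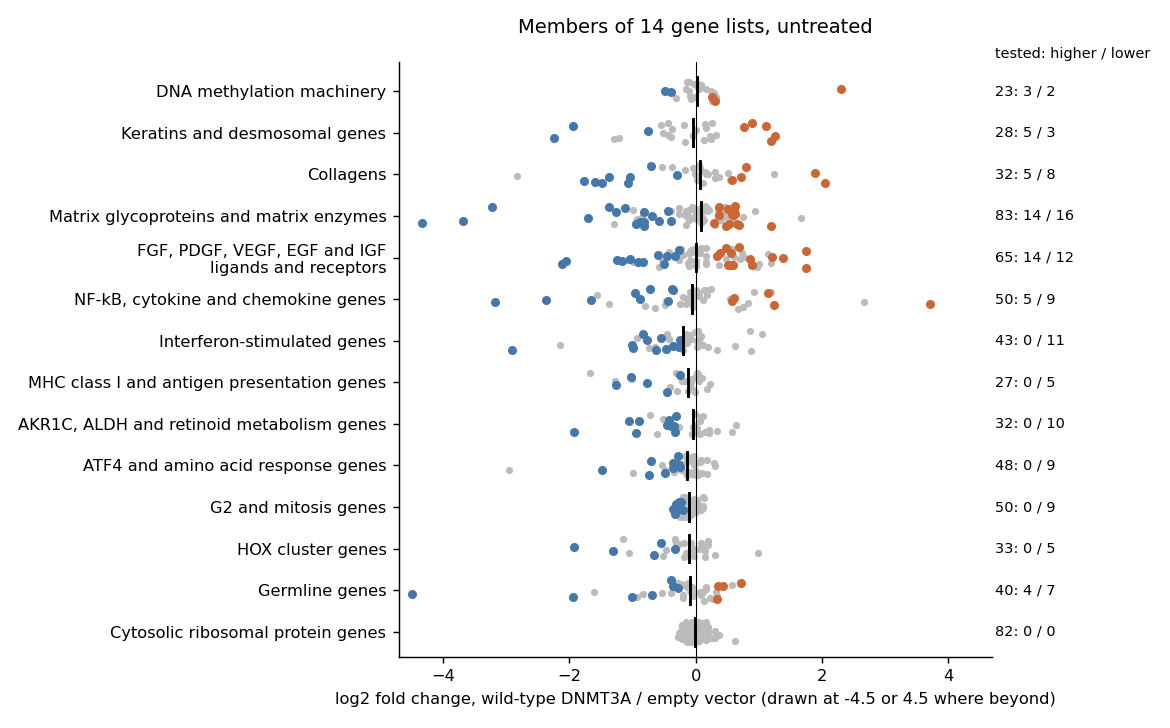
Log2 fold change (wild-type DNMT3A against empty vector, untreated) of the tested members of 14 gene lists; each point is 1 gene, orange called higher, blue called lower, grey not called, and the black bar is the median. Interferon, antigen presentation, amino acid response, mitosis and HOX lists hold no orange points, nor does the list of AKR1C, ALDH and retinoid genes. Collagen and growth factor lists hold both, and ribosomal protein genes hold neither.

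For the lists without rises, members higher at an unadjusted p under 0.05 were counted. They numbered 0 for the interferon, antigen presentation and mitosis lists and 1 for the AKR1C, ALDH and retinoid list. For HOX genes there were 2 and for the amino acid response list 3. DESeq2 called no member of these lists higher. The fit of the 6 libraries alone called 0 higher of the interferon list, 1 of antigen presentation and 3 of mitosis. It called 2 higher of the AKR1C, ALDH and retinoid list, 2 of HOX genes and 6 of the amino acid response list, where falls were 22. Over all genes that fit called 2426 higher and 2675 lower. In the fit of all 18 libraries, 4373 of 18226 genes had an unadjusted p under 0.05.

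The other lists held calls in both directions or few calls. Rises and falls were 8 and 7 of 61 for the BMP and TGF-beta pathway (13.1% and 11.5%), 6 and 5 of 38 for integrins and cadherins (15.8% and 13.2%) and 3 and 4 of 24 for osteoblast lineage genes (12.5% and 16.7%). They were 5 and 8 of 62 for axon guidance genes (8.06% and 12.9%), 4 and 5 of 51 for the Wnt pathway (7.84% and 9.8%) and 3 and 3 of 35 for Polycomb subunits (8.57% each), closer to the shares of 4.3% and 7.36% among all genes. Of the last, the methyltransferase gene EZH2 fell by 0.45 and RBBP7 by 0.37 on the log2 scale. EZH2 and RBBP7 lie in stretches of lower genes described below, on chromosomes 7 and X. JARID2 rose by 0.42, with its call lost in 4 of the 6 fits without 1 library. Falls without rises were counted for the Notch pathway (4 of 27, 14.8%) and for cholesterol and fatty acid synthesis (5 of 33, 15.2%). Among the latter, INSIG1 (-0.62) lies in a stretch of lower genes on chromosome 7 described below. With a replicate block 2 Notch genes were lower. The fit of the 6 libraries alone called 1 Notch gene higher and 5 lower. Of the cholesterol and fatty acid genes it called 3 higher and 12 lower. Solute carriers of amino acids had 1 of 38 higher and 6 lower with a median of -0.23. That median was -0.16 with genes at the floor of 3 counts set to their bound. Among the solute carriers that fell, SLC7A6 (-0.42) lies in the stretch of lower genes on chromosome 16 described below. Hypoxia and glycolysis genes had 1 of 39 higher and 6 lower, immediate early genes 5 of 30 higher and 3 lower, and complement genes 2 and 2 of 22. Clustered protocadherins had 3 of 44 higher and none lower, with a median of -0.10 and 27 of 44 below 0. At an unadjusted p under 0.05, 4 protocadherins were higher and 4 lower. Of the zinc finger genes of chromosome 19, 2 of 208 rose and 7 fell, 0.962% and 3.37%, both under the share among all genes. ALPL, the bone alkaline phosphatase gene, fell from 14.3, 11 and 10.5 CPM to 8.34, 6.51 and 6.27 CPM, and CDH11, the osteoblast cadherin gene, rose from 6.25, 5.96 and 6.46 CPM to 10.6, 11.3 and 11.8 CPM.

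Lower genes were not spread evenly along the chromosomes. Genes that averaged 1 log2 CPM or more were put in chromosomal order, and stretches were sought where at least 20 of 41 neighbours were called in 1 direction. This was done after a clustering had been seen. There were 4 such runs of lower genes and none of higher genes. On chromosome 7, 34 of 65 genes from MRPS33 to LINC00689 (chr7:141002610-159030196) were lower and none higher, with a median log2 fold change of -0.37, and the run reached the last gene of the chromosome. Also on chromosome 7, 21 of 42 genes from GCC1 to BPGM (chr7:127580618-134679814) were lower, with a median of -0.32. On chromosome X, 28 of 53 genes from CLCN4 to AC004656.1 (chrX:10156945-24550467) were lower, with a median of -0.40 and 51 of 53 below 0. On chromosome 16, 25 of 54 genes from EDC4 to IST1 (chr16:67873023-71931200) were lower, with a median of -0.28 and 51 of 54 below 0. The falls there were shallow and shared by neighbours, unlike the large falls of single genes above. In the treated libraries the medians of the 4 runs, in the order given, were -0.43, -0.30, -0.37 and -0.27. In the mutant line against the same EV libraries they were -0.26, -0.34, -0.10 and -0.45. Over whole chromosomes, 15.5% of the genes of X, 13.8% of those of chromosome 7 and 10.8% of those of chromosome 16 were lower. Chromosomes 13, 22 and 1 came next with 9.49%, 9.27% and 9.26% lower and 1.27%, 1.72% and 1.74% higher. Over all tested genes the shares were 7.36% lower and 4.3% higher. Without the genes of the 4 runs, 1234 genes were lower and 783 higher. The libraries measure RNA only.

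**Figure D4:**
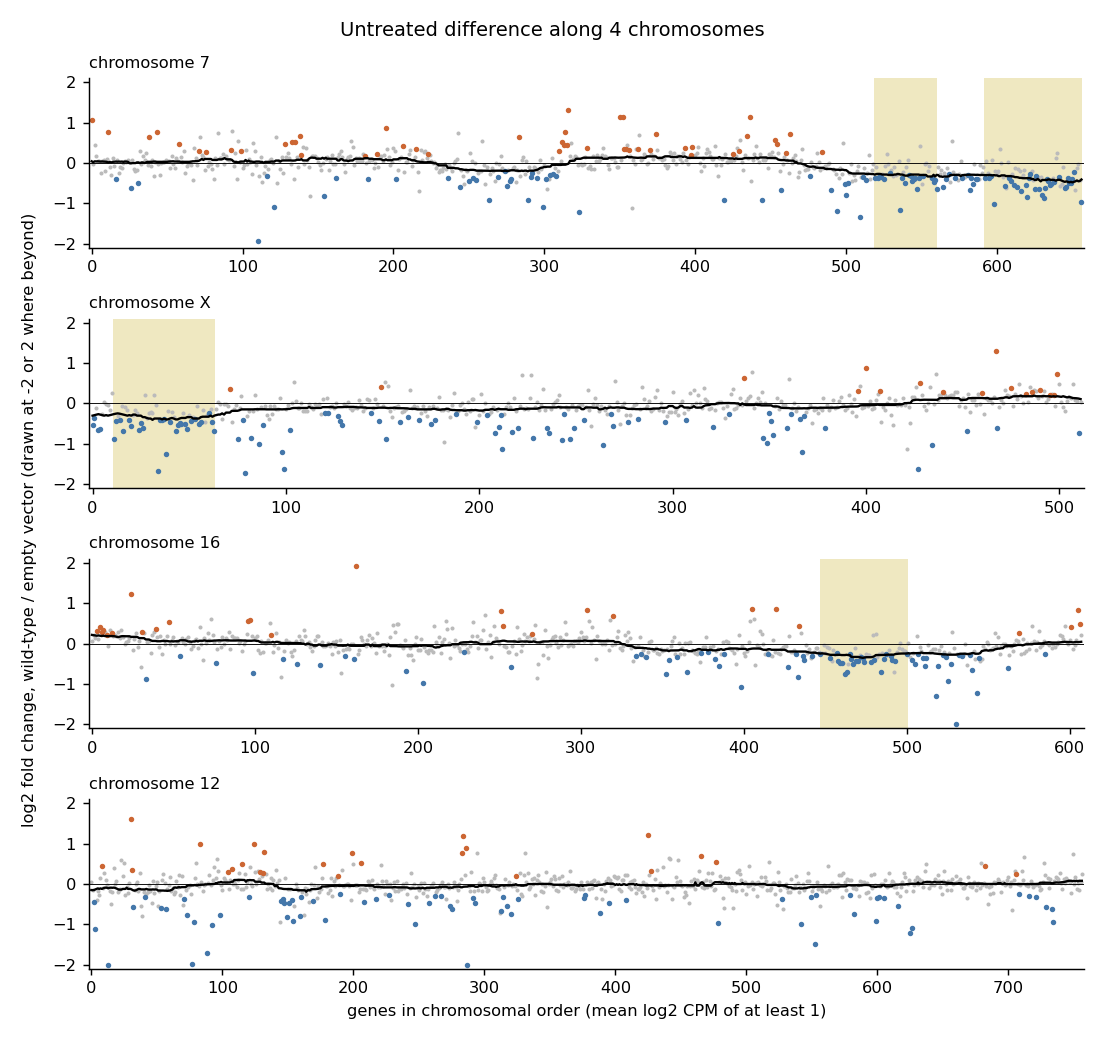
Log2 fold change (wild-type DNMT3A against empty vector, untreated) of genes in chromosomal order on chromosomes 7, X, 16 and, for comparison, 12, for genes that averaged 1 log2 CPM or more; orange was called higher, blue lower, grey not called, the black line is the running median over 41 genes and the shaded spans are the 4 runs. The running median lies below 0 through each shaded span, and chromosome 12 has no such span.

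The same 2 lines were also compared after 24 h of cytarabine, in 6 other libraries, which gives a second reading of the line difference from separate cultures of the same lines. There 1351 genes were higher in the WT line (7.41%) and 1662 lower (9.12%). Of the 783 genes higher without drug, 743 (94.9%) had the same sign and 453 (57.9%) were called higher again, with a median of 0.34. Of the 1342 lower genes, 1258 (93.7%) had the same sign and 829 (61.8%) were called lower again, with a median of -0.41. Not every gene list kept its split. In treated cells the amino acid response list had 12 of 48 higher and 5 lower (median 0.12) and the interferon list 3 of 43 and 7 (0.03). Of p53 targets 11 of 36 were higher and 0 lower, and of replication and E2F targets 17 of 50 and 0. The mitosis list again held falls only (21 of 50), and the AKR1C, ALDH and retinoid list had 1 of 32 higher and 10 lower. Only AAMDC and NGFR were called higher without drug and lower with it, and 9 genes, among them GDF15, MCM5 and TAP1, were called lower without drug and higher with it. Without 1 untreated library, the untreated call was lost in 5 of the 6 fits for GDF15 and TAP1, in 4 for NGFR and in 2 for MCM5. DNMT3A rose by 1.90 in the treated cells, HIST1H1C by 1.72 and SHISA9 by 1.45 on the log2 scale, and KRT8 fell by 1.79, ICAM1 by 2.97 and NES by 2.62. The difference between the untreated and the treated contrast was itself called in 52 genes (0.285%). Without treated WT replicate 2 the treated comparison gave 743 higher and 1033 lower genes, and without treated WT replicate 3 it gave 871 higher genes. The 52 became 131 by DESeq2, 278 with the 12 libraries of these 4 groups alone, 53 without treated EV replicate 2, and 12 to 25 without any one of the other 11 libraries.

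**Figure D5:**
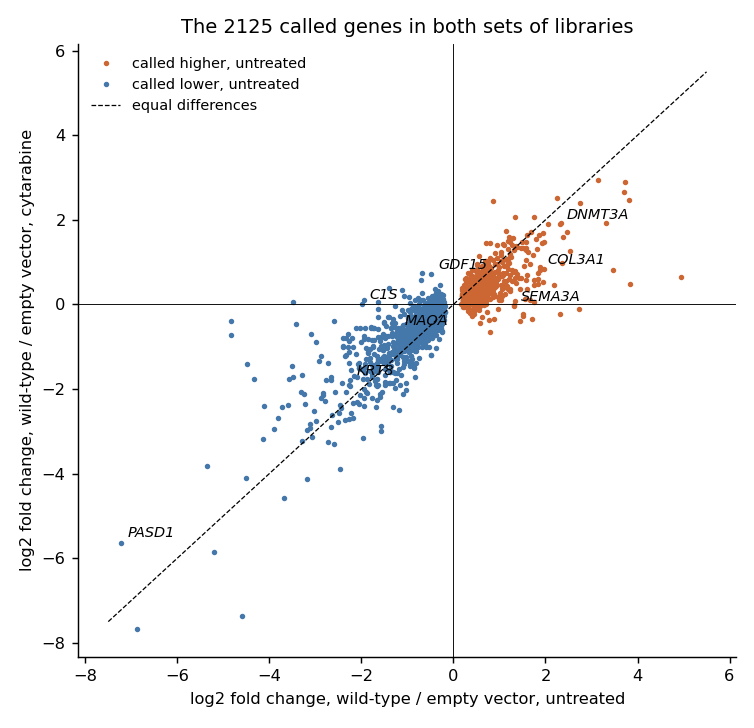
Log2 fold change of the wild-type DNMT3A line against the empty vector line after cytarabine, plotted against the untreated value, for the 2125 genes called without drug (orange higher, blue lower); the dashed line marks equal differences. Most points lie in the quadrants of equal sign, 743 of 783 orange and 1258 of 1342 blue points, with C1S and SEMA3A near 0 on the vertical axis.

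The mutant line was read side by side for some of the genes of largest change, with the same EV libraries as control. KRT8 stood at 342 CPM in the EV line, 71.8 CPM in the WT line and 349 CPM in the mutant line, and NES at 24.8, 3.96 and 29.0 CPM. IL2RB stood at 19.7, 2.39 and 24.5 CPM, COL1A1 at 177, 63.4 and 166 CPM and CTGF at 288, 657 and 293 CPM in the same order. In these genes the mutant mean lay nearer the EV mean than the WT mean. CTCFL, DDR2, COL8A1 and LINC01694 were lower in both lines: CTCFL stood at 20.3, 5.30 and 0.51 CPM and DDR2 at 28.3, 6.47 and 4.08 CPM. HIST1H1C stood at 22.9, 127 and 52.3 CPM. The untreated mutant libraries varied more, with a coefficient of variation of 0.216, and the WT and mutant values share their EV libraries.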

How the data were processed

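RNA of 18 U2OS libraries was sequenced, and the 6 untreated WT and EV libraries are compared here. Per the submitters' processing notes the authors used CASAVA and STAR 2.6.1d with the build hg38; the counting tool, its use of strand and the annotation are not given in the sources used here. The deposited main table holds estimated counts of 25296 gene symbols (70.4% of the values were whole), which were rounded before testing. A second deposited table held a normalized signal, 1 plus a factor per library times the estimated count, and served only for an alternative scaling. Its derivation is not given in the sources used here.

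Counts were analysed with edgeR 4.0.16 in R 4.3.3: filterByExpr left 18226 genes, libraries were scaled by TMM, and 1 quasi-likelihood fit held a coefficient for each of the 6 groups. Genes were called at a Benjamini-Hochberg adjusted p under 0.05. CPM are counts per M counts after TMM scaling. The 18 library totals ran from 15.4 to 21.9 M counts. Members and gene lists were chosen with earlier results of these data known. The text names DNMT3A, the 12 largest rises and falls among called genes that averaged 1 log2 CPM or more and whose groups did not overlap, 6 of each at 6 or more, up to 3 of each per list, and every tested gene of DNA methylation; others were named after their values were seen, among them histone genes, KRT7, KRT18, KRT75, COL1A2, CYR61, ANKRD1, PDGFRB, BGN, PASD1 and H19. Same-numbered replicates of the 2 groups did not deviate together, so no pairing was used. Simulated data held 200 changed genes, all drawn from genes with a mean above 2 CPM. There the untreated comparison recovered 49.3% of changes of 0.5, 86.6% of 1 and 97% of 2 on the log2 scale. Each gene was given the spread of the fit of all 18 libraries, the same in every group. The real groups had coefficients of variation from 0.0397 (untreated EV) to 0.216 (untreated mutant), so recovery in the real data may differ. Weaker genes were not simulated as changed, so their recovery is not known. Alternatives were other scalings, filters, libraries, a fold minimum, a replicate block and DESeq2 1.42.0. Starts came from GENCODE v44 and RefSeq. Symbols that read as dates (26) are not named, and some genes that the rule picks are not reported here.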

Additional observations from a re-analysis of the deposited data

Results flagged for a closer look

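In 10 of the named genes the difference between the WT and EV lines itself differed between untreated and treated cells (edgeR interaction test, adjusted p under 0.05, 52 genes in all). The values are the untreated minus the treated log2 fold change. The falls of C1S (-1.99), ARC (-0.93), DDR2 (-0.95) and MAOA (-0.59) were deeper without drug: C1S, a complement protease gene, fell by 1.98 in untreated cells and differed by 0.01 in treated cells. TIGAR (-0.71), a p53 target gene, fell by 0.56 without drug and differed by 0.14 with it. GDF15 (-1.19), a stress-induced cytokine gene, and MCM5 (-0.43), a subunit of the replicative helicase, were lower in the WT line without drug and higher with it. SEMA3A (1.36), an axon guidance ligand gene, rose by 1.31 without drug and differed by -0.04 with it, and the rises of COL3A1 (1.06) and VGF (0.72) were larger without drug.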

How the results depend on the processing

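DNMT3A kept its call under every alternative run, at log2 fold changes of 2.28 to 2.33. Untreated, the fit of the 6 libraries alone called 2426 genes higher and 2675 lower (47.6% higher), and a fold minimum of 2 left 126 and 343. Leaving out 1 library gave 449 to 490 higher and 923 to 962 lower genes. Treated, the fold minimum left 156 and 442, and leaving out 1 library gave 743 to 1138 higher and 1033 to 1510 lower, both lowest without treated WT replicate 2. The number of genes whose difference changed with treatment was 131 by DESeq2, 15 with the fold minimum, 32 with the authors' factors, 34 without a filter, 278 with the groups compared alone, and 12 to 53 with 1 library left out. A fold minimum lowers a count by construction; the cause of the other changes was not tested. The labels share replicate numbers, and a replicate block gave 755 higher and 1308 lower genes untreated; the numbers do not pair the samples, since same-numbered deviations correlated at -0.048 to 0.005. Among the named genes, 2346 of the values under an alternative kept direction and call, 334 lost the call, 10 gained it and 7 changed sign. The latter were genes near 0 that never passed: with 1 library left out, MBD1 ranged from -0.052 to 0.013, MTR from -0.059 to 0.0086, TET1 from -0.060 to 0.38 and TET2 from -0.062 to 0.10. Genes with few counts were limited by depth.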
